A study of Mus musculus with 8 samples.

Results

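Nonclassical monocytes of the blood are the patrolling branch of the monocyte lineage. They crawl along the inner wall of small vessels, arise in the mouse largely from classical Ly6C-high monocytes, and depend on the transcription factor Nr4a1 and on C/EBP beta for their formation and survival. They are told from classical monocytes by low Ly6c2 and Ccr2 and by high Cx3cr1, Fcgr4 (the CD16-2 receptor for IgG), Spn (CD43) and the surface genes Treml4, Ace, Cd300e and Adgre4. Here they were taken as the blood barcodes of the series whose UMIs (single counted transcript molecules) met a gate, so the members were chosen by measured values, those of the gate genes, and these genes are given here as description. A member needed at least 3 UMIs over Treml4, Ace, Cd300e and Eno3 together, at most 3 of Ly6c2, at most 2 over C1qa, C1qb and C1qc, none of Cd79a, Gzma or Ncr1, and under 10 over S100a8 and S100a9. Of 11130 barcodes in all, 4810 had passed the limits on genes (at least 200), mitochondrial UMIs (at most 10%) and hashtag UMIs and carried the blood hashtag, and 496 of those were members.

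The samples were CD45+CD11b+ cells sorted from the blood and the heart of Mx1Cre:c-Mybfl/fl recipient mice, a strain in which the blood-forming cells of the host can be removed by an inducible Cre. All 4 mice were recipients of this strain. A pair of them had received bone marrow of donors after stroke and the other pair bone marrow of control donors; no age and no donor strain is stated in the labels. Blood and heart cells of 1 mouse were stained with different hashtag antibodies, sorted, and pooled into a single 10x 3′ library. The stroke-marrow mice gave 195 and 56 members, replicates 1 and 2, and the control-marrow mice 112 and 133. The libraries were matched to mice by the barcode suffix and the sample number in the submitters' descriptions, and every donor comparison rests on that match.

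Some features of the libraries stood apart before any comparison. A B cell gate took barcodes with at least 3 Cd79a UMIs and none of Treml4, Ace, Cd300e or Eno3. Stroke replicate 2 had 70.3% of its blood barcodes in it, against 5.96% in stroke replicate 1 and 10.6% and 6.08% in control replicates 1 and 2. Stroke replicate 2 also held the fewest members. Control replicate 1 was male-type, with 62 UMIs of 4 Y-linked genes and no Xist in its members, whereas the members of the other mice held 99 to 316 Xist UMIs and no Y-linked ones. Its members also carried a different fluorescent transgene, as given further on. Members of different libraries shared no cell barcode. The members held 201419 to 769468 gene UMIs per mouse, with a median of 3283 to 3932 UMIs per barcode. No doublet caller was run.

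The markers went with the label. Of the 6 marker genes, Ace, Cd300e and Treml4 belong to the gate and Ear2, Adgre4 and Tgfbr3 do not. The blood cells set beside the members were also limited in Treml4, Ace, Cd300e and Eno3. Classical monocytes could hold at most 2 UMIs over these genes and B cells none. The part of these limits in the shares below was not tested. To compare cells of unlike depth, each barcode was thinned to 2000 UMIs and shallower ones were left out, 30 of 496 members. Adgre4, an adhesion receptor of the EGF-TM7 family, was then found in 80.7% to 88.5% of members over the 4 mice, against 15.7% to 22.2% of blood classical monocytes and 0% to 1.67% of blood B cells, which should lack it. Before thinning these shares were 94.0% to 99.0% of members and 33.3% to 41.0% of classical monocytes. Ear2, an eosinophil-associated ribonuclease, was found in 47.1% to 57.1% of thinned members, against 2.89% to 5.56% of classical monocytes and 0% of B cells. Without thinning Ear2 was found in 66.1% to 77.4% of members. Tgfbr3, the TGF-beta co-receptor betaglycan, was the least detected of the 6 markers, in 17.6% to 31.2% of thinned members, against 0% to 2.78% of classical monocytes and 0% to 1.28% of B cells (32.1% to 49.1% of members without thinning). Median depth was 3283 to 3932 UMIs in members, 5944 to 6439 in classical monocytes and 4056 to 5942 in B cells.

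**Figure D1:**
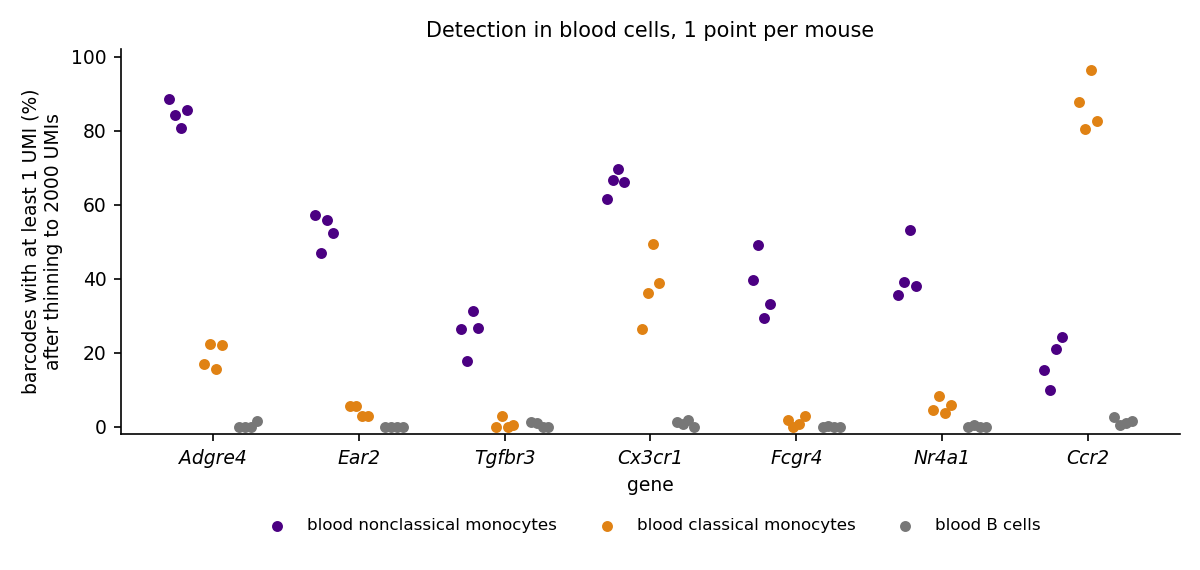
Share of barcodes with at least 1 UMI of each gene (vertical axis, percent, after thinning every barcode to 2000 UMIs), with 1 point per mouse, in blood nonclassical monocytes, blood classical monocytes and blood B cells. Adgre4 lies between 80.7% and 88.5% in nonclassical monocytes of all 4 mice, while Ccr2 lies between 80.6% and 96.3% in classical ones.

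Markers of other cells were scarce in the members. Over 11 NK and T cell markers the members of a mouse held 0 to 8 UMIs, and over 8 B cell markers 87.2 to 158 CPM (a gene's UMIs scaled to the total of the summed members), of which 84.5% were Ighm. Neutrophil markers summed to 129 to 173 CPM, mostly Csf3r, and dendritic cell markers to 4.96 to 22.6 CPM. The macrophage list reached 3442 to 4494 CPM, but Apoe, a lipid carrier, made up 92.7% of its UMIs and Timd4 was at 0. Cd79a, Gzma, Ncr1, Cd3e, Ly6g, Xcr1 and Siglech were at 0 in the members of every mouse, Cd79a, Gzma and Ncr1 by the gate. The gate also limited C1qa, C1qb and C1qc of the macrophage list and S100a8 and S100a9 of the neutrophil list. Low sums of these lists were therefore in part set by the gate.

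Members near the limits of the gate were closer in level to the classical type than the others. A median of 6 gate marker UMIs was found per member, and 73 of the 496 sat at the limit of 3. Just inside the limit, at 3 marker UMIs, Ccr2 was at 510 CPM and Spn at 244 CPM; just outside it, the 86 barcodes with 2 marker UMIs had Ccr2 at 499 CPM and Spn at 199 CPM. The 423 members with 4 or more had 175 CPM of Ccr2 and 442 CPM of Spn. Ly6c2 gave a like picture: 85.1% of members had no Ly6c2 UMI, 74 had 1 to 3, and 46 otherwise fitting barcodes with 4 or more fell outside. Ccr2, the receptor that brings classical monocytes out of the marrow, was at 137 CPM in members without Ly6c2, 551 CPM in those with 1 to 3 UMIs and 908 CPM outside. Fcgr4 ran the other way, at 272, 88.9 and 65.7 CPM, as did Ear2, at 513, 235 and 143 CPM. In each of the 4 mice Ccr2 was higher and Ear2 lower in the members with 1 to 3 Ly6c2 UMIs than in those with none. Median depth also rose over the Ly6c2 steps, at 3491.5 UMIs with none, 5187 with 1 to 3 and 6490.5 outside, and its part was not tested. These levels are a description, since the gate used Ly6c2 and the marker sum.

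Blood classical monocytes were gated from the same libraries for reference (at least 4 Ly6c2 UMIs, at most 2 marker UMIs, and at least 2 over Ccr2, F13a1 and Csf1r), which gave 272 and 36 barcodes in stroke and 135 and 173 in control replicates 1 and 2. Levels in this comparison are CPM of the summed members and a difference is on the log2(CPM + 10) scale within a mouse, with no test because the gates chose the cells. Of 2124 genes with at least 100 CPM in either type, 46 were more than 4-fold higher in nonclassical monocytes in all 4 mice and 11 more than 4-fold lower. These counts hold genes that chose the cells: Ace, Cd300e, Treml4 and Eno3 among the higher, and Ly6c2 and F13a1 among the lower. Outside the gate, the genes with the largest differences in the least different mouse were Fabp4, Dusp16, Cd36, Bcl2a1b and Slc12a2. Fabp4, a fatty acid carrier, was at 325 and 308 CPM in nonclassical monocytes of stroke replicates 1 and 2 and 373 and 290 CPM in those of control replicates 1 and 2, against 0 to 5.09 CPM in classical monocytes. Dusp16, a MAP kinase phosphatase, averaged 656 CPM in nonclassical and 17.4 CPM in classical monocytes, and Slc12a2, an ion cotransporter, 249 against 2.73. Cd36, a scavenger and fatty acid receptor, averaged 308 CPM against 2.82, and Pparg, the nuclear receptor that drives both in other cells, 326 CPM against 5.96. Bcl2, which blocks cell death, averaged 406 CPM in nonclassical and 16.4 CPM in classical monocytes. Nr4a1 was at 212, 258, 363 and 267 CPM in nonclassical monocytes (stroke 1 and 2, control 1 and 2), against 28.3, 23.5, 46.3 and 34.6 CPM in classical monocytes of the same mice, so that the types did not overlap.

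By list, all 28 nonclassical identity genes that are in neither gate and reached 20 CPM were higher in nonclassical monocytes in all 4 mice, and all 11 such classical identity genes were lower. These counts are a description. The gates split the types on markers of the same identities, and gates and lists were chosen with earlier results of these data known. Over all 6425 genes at 20 CPM or more, 1783 were higher and 1439 lower in all 4 mice. Fn1 (fibronectin) averaged 83.1 CPM in nonclassical and 1284 CPM in classical monocytes, and Vcan (the proteoglycan versican) 25.7 against 310 CPM. Ccr2 averaged 222 against 1266 CPM, but it helped to choose the classical cells. Type I interferon response genes had 22 of 32 members lower in nonclassical monocytes in all 4 mice and none higher, with a median difference of -0.95 against 0.05 over all genes. MHC class II genes had no member higher and 2 of 7 lower in all 4 mice. Of 20 adhesion and patrolling genes 14 were higher and 4 lower, and of 17 NF-kB and feedback genes 13 were higher and 2 lower.

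The share of nonclassical monocytes in blood did not differ between the donor groups beyond the spread of the mice. They made up 14.2% (95% Clopper-Pearson interval 12.4 to 16.1) and 4.28% (3.25 to 5.52) of blood barcodes in stroke replicates 1 and 2, against 9.84% (8.17 to 11.7) and 13.5% (11.4 to 15.8) in control replicates 1 and 2. The stroke mice thus held both the highest and the lowest share, and the difference of the means, -2.43 percent points, came with p = 1 (exact permutation, two-sided), where 2 mice against 2 allow no p below 0.333. The mouse with the lowest share is the one whose blood barcodes were mostly B cells; without it the difference was 2.51 points, and without stroke replicate 1 it was -7.38. As a share of gated blood monocytes, which B cells cannot move, nonclassical cells made up 41.8% (37.2 to 46.4) and 60.9% (50.1 to 70.9) in stroke, against 45.3% (39.0 to 51.8) and 43.5% (37.8 to 49.2) in control (difference 6.91 points, exact p = 1). Here stroke replicate 2 was the highest; without it the difference was -2.65, and without stroke replicate 1 it was 16.5. The intervals cover counting error only, and the CD11b sort sets which cells could enter a share.

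**Figure D2:**
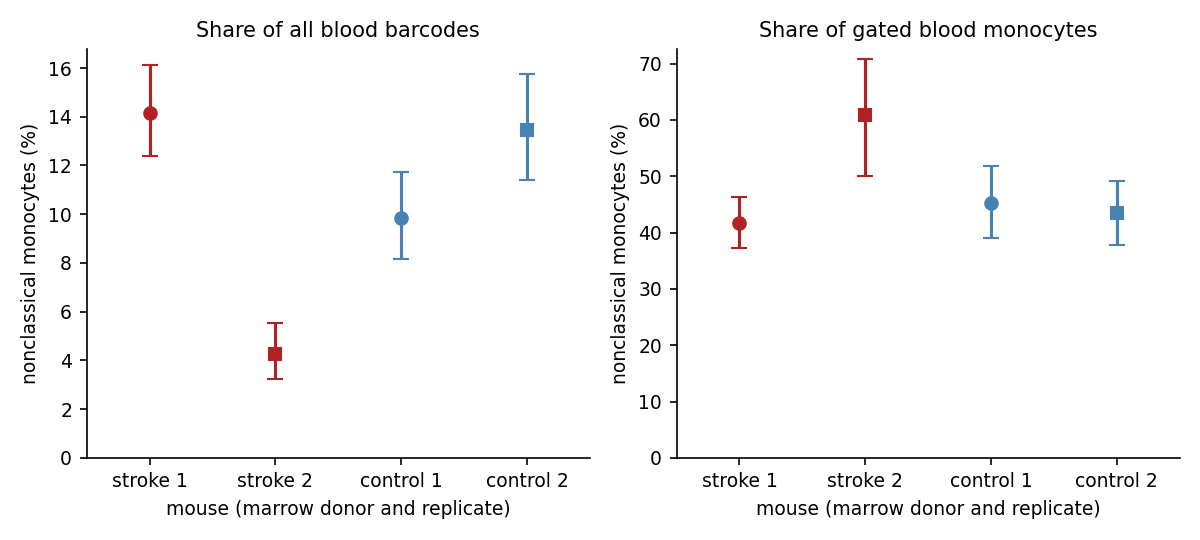
Nonclassical monocytes as a share of all blood barcodes (left) and of gated blood monocytes (right), in percent, for each mouse; bars are 95% Clopper-Pearson intervals. Stroke replicate 2 is lowest on the left at 4.28% and highest on the right at 60.9%, and the donor groups overlap in both panels.

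Transgene transcripts differed between mice. The feature list names 2 added sequences agfp and kgfp, read here as fluorescent protein transgenes and kept out of every test. The labels do not say what they mark. agfp was found in 99.5% and 96.4% of members in stroke replicates 1 and 2 and in 88.7% in control replicate 2, at 4494, 4116 and 4807 CPM, and kgfp had 0 UMIs in those mice. In control replicate 1 agfp was at 179 CPM and kgfp at 593 CPM, found in 48.2% and 83.0% of members. Members with neither made up 0.513% and 3.57% in stroke and 12.5% and 11.3% in control replicates 1 and 2. In blood B cells agfp was found in 12.4% to 36.6% of barcodes per mouse, at 26.4 to 535 CPM, and in heart macrophages (at least 10 UMIs over the C1q genes) in 22.3% to 29.1%. Heart cells past the nonclassical gate carried agfp in 87.8% to 95.9% of barcodes in the 3 mice without kgfp.

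Marrow of stroke donors went with few gene differences in blood nonclassical monocytes. Summed counts of the members were compared with edgeR's quasi-likelihood test over 6275 genes, with Benjamini-Hochberg adjustment and a threshold of 0.05. Btg1 rose (1 gene, 0.0159% of those tested) and Fn1 and Gm10076 fell (2 genes, 0.0319%), 3 genes in all (0.0478%). Levels are CPM after TMM scaling. The p-values rest on 2 against 2 mice. The test moderates each gene's spread toward that of all genes tested, so a p-value does not measure the gene's own spread alone. SE is the size of the log2 fold change divided by the square root of the test's F value. In summed cells, fewer cells with a transcript and less of it per cell cannot be told apart.

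Btg1 (ENSMUSG00000036478, GRCm38 chromosome 10, 96617006 to 96622809, plus strand) encodes an antiproliferative protein that is high in resting blood cells. It was at 866 and 916 CPM in stroke mice, against 422 and 519 CPM in control mice. Both stroke mice lay well above both control mice, with a log2 fold change of 0.92 (SE 0.17, edgeR adjusted p = 0.0316), and 179 of 195 and 52 of 56 members held a UMI in stroke, against 89 of 112 and 108 of 133 in control. Fn1 (ENSMUSG00000026193, GRCm38 chromosome 1, 71585520 to 71653200, minus strand), which encodes fibronectin and is a classical monocyte gene in mouse blood, was at 46.6 and 25.6 CPM in stroke mice, against 136 and 139 CPM in control mice (log2 fold change -1.73, SE 0.28, adjusted p = 0.0125). The groups did not overlap, but the counts were small, 35 and 5 UMIs against 63 and 70, and a single barcode held 41.3% of those in control replicate 1. Gm10076, annotated as a long noncoding RNA, was at 70.5 and 20.5 CPM in stroke and 156 and 703 CPM in control (-2.91, SE 0.48, adjusted p = 0.0125). Its control mice differed by more than 4-fold from each other, and its counts are uncertain because short noncoding copies can share reads with other genes.

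These calls did not hold under many alternatives. None of the 3 passed under DESeq2 (32 genes at unadjusted p under 0.05, against 269 with edgeR), without stroke replicate 2, with the replicate number as a block, or with at least 5 marker UMIs per member, where Fn1 moved to -0.76. In these settings Btg1 kept a log2 fold change of 0.83 to 0.93. Gm10076 ran from -4.38 without stroke replicate 1 to -1.41 without control replicate 2. Leaving out control replicate 1 gave 29 calls and leaving out control replicate 2 gave 28.

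Of the classical identity genes, 1 of 13 tested (Fn1) was called, and 5 of 13 had both stroke mice below both control mice, against 1 above. Over all genes tested 16.3% had both stroke mice above and 16.3% below. Ccr2 was at 149 and 164 CPM in stroke and 331 and 281 CPM in control (-0.99, SE 0.21, adjusted p = 0.0877). With at least 5 marker UMIs per member the Ccr2 difference was -0.01, and without control replicate 1 or 2 it passed, with adjusted p = 0.0472 and 6.73e-04. F13a1 was at 63.9 and 61.4 CPM against 110 and 123 CPM (-0.88, SE 0.26, adjusted p = 0.65). Ly6c2 itself overlapped, at 65.2 and 51.1 CPM in stroke and 41.1 and 95.1 CPM in control. The list's median log2 fold change was -0.16, against -0.0014 over all genes tested. Members with 1 to 3 Ly6c2 UMIs, which carry more Ccr2, made up 14.4% and 16.1% in stroke and 8.93% and 20.3% in control replicates 1 and 2. Among members with 0 Ly6c2 UMIs alone, Fn1 was at -1.68 with adjusted p = 0.236 and Ccr2 at -0.63 with adjusted p = 0.994.

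None of the 33 nonclassical identity genes was called. Their median log2 fold change was 0.06, and 7 had both stroke mice above the control mice and 3 below, against 16.3% of all genes tested in each direction. Adgre4 was at 1258 and 1197 CPM in stroke, against 1208 and 1182 CPM in control (0.04, SE 0.14). Ace was at 627 and 762 CPM against 638 and 650, Cd300e at 319 and 332 against 294 and 301, and Treml4 at 382 and 409 against 484 and 353 CPM, with log2 fold changes of 0.09, 0.12 and -0.09. Ear2 stood at -0.08 (SE 0.18) and Tgfbr3 at -0.29 (SE 0.23), where control replicate 1 was highest at 242 CPM and the other 3 mice lay between 143 and 169. The identity gene with the lowest p was Apoc2, a cofactor of lipoprotein lipase, at 961 and 905 CPM in stroke, against 726 and 598 in control (0.50, SE 0.16, adjusted p = 0.835).

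**Figure D3:**
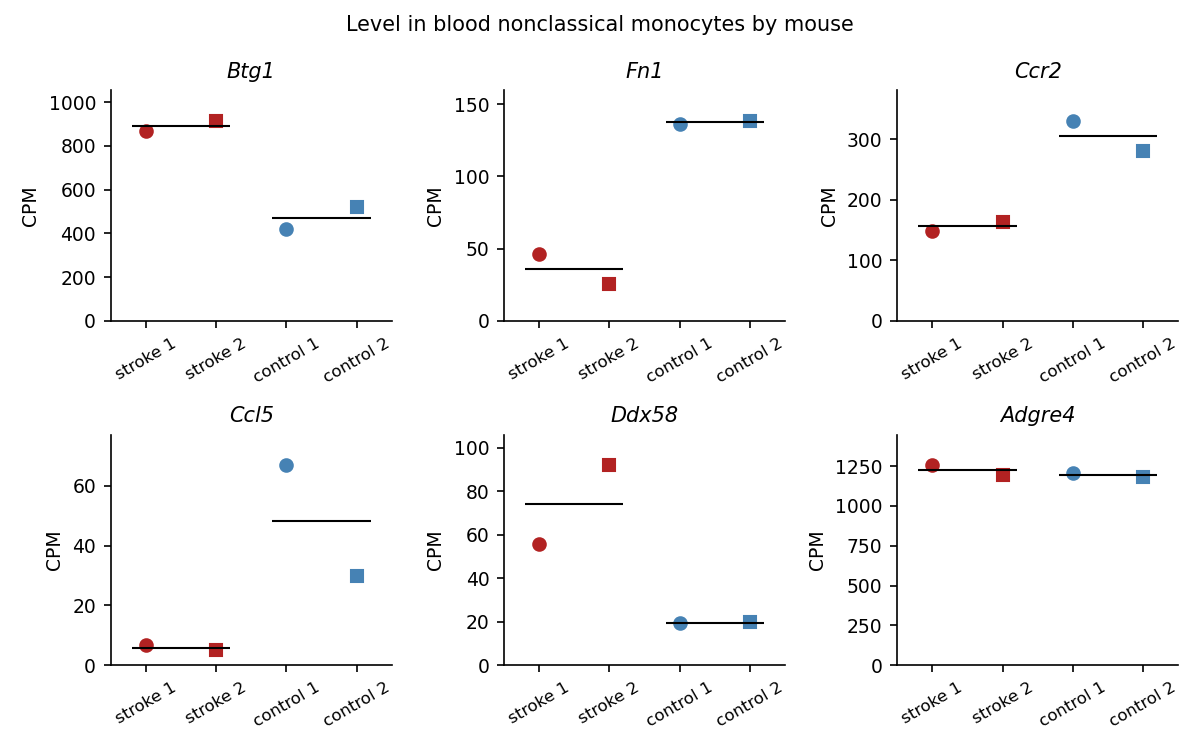
Level of 6 genes in blood nonclassical monocytes of each mouse, in CPM on linear axes from 0; black lines are group means over 2 mice. Btg1 and Ddx58 are higher and Fn1, Ccr2 and Ccl5 lower in both stroke mice, while the marker Adgre4 stays between 1182 and 1258 CPM; of these 6 genes Btg1 and Fn1 passed the test.

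Type I interferon response genes had positive values in 21 of 25 tested, with a median of 0.28 and none called. For 6 of them the stroke mice were both higher than either control mouse, and for none were they both lower, against 16.3% of all genes tested in each direction. Ddx58, the cytosolic RNA sensor RIG-I, was at 55.9 and 92.1 CPM in stroke and 19.5 and 19.8 CPM in control (1.72, SE 0.39, adjusted p = 0.175), from 42 and 18 UMIs against 9 and 10. Oas2, which activates RNase L in infected cells, was at 29.3 and 56.3 CPM against 6.49 and 11.9 CPM (1.94, SE 0.56, adjusted p = 0.65). Ifi27l2a was at 1676 and 1074 CPM in stroke and 510 and 1081 CPM in control, so that stroke replicate 2 and control replicate 2 were alike. Control replicate 1, the male-type mouse with kgfp, had the lowest Ifi27l2a, Oasl2 and Irf9 of the 4 mice, and the part of sex or transgene in this list cannot be told apart from the mouse.

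Other lists held no call apart from Btg1. Of the cytokines and chemokines 5 of 22 were tested, with 4 negative and a median of -0.49. Ccl5, a chemokine of T cells and monocytes, was at 6.65 and 5.11 CPM in stroke and 67.0 and 29.7 CPM in control (-2.87, SE 0.58, adjusted p = 0.082), but a single barcode held 90.3% of the 31 UMIs in control replicate 1 and 86.7% of the 15 in control replicate 2. Il1b, which encodes interleukin-1 beta, was at 206 and 148 CPM in stroke and 54.0 and 160 CPM in control (0.78, SE 0.31, adjusted p = 1), so the groups overlapped and control replicate 1 was low. Pecam1, an adhesion molecule of vessel wall and leukocytes, was at 244 and 261 CPM against 64.9 and 192 CPM, with control replicate 1 again the lowest (0.94, SE 0.30, adjusted p = 0.835). Without control replicate 1 its difference was 0.37 (adjusted p = 0.997) and without control replicate 2 it was 1.94 (adjusted p = 9.14e-08). Icam2, a ligand of the integrin LFA-1, was at 33.3 and 30.7 CPM in stroke 13 and 7.92 CPM in control (1.63, adjusted p = 0.844). MHC class II genes overlapped throughout, with Cd74 at 1071 and 1831 CPM in stroke and 1314 and 1963 CPM in control. Immediate early genes (median 0.05 over 16), NF-kB and feedback genes (0.01 over 17), lysosome genes (-0.01 over 18) and MHC class I genes (0.19 over 13) had no call.

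Blood nonclassical monocytes were also set against the heart cells that passed the same gate. The heart gave 219 and 110 such barcodes in stroke replicates 1 and 2 and 100 and 213 in control replicates 1 and 2. With 8 sums and a term for the mouse, edgeR's quasi-likelihood test called 968 of 5947 genes (16.3%), 360 of them higher in blood (6.05%) and 608 lower (10.2%). Most tested members of the immediate early and NF-kB lists were lower in blood, and 7 of 11 classical identity genes and 7 of 24 type I interferon genes were higher. Blood and heart suspensions were made separately and pooled only after the sort, so organ and preparation cannot be told apart. DESeq2 called 418 genes, 82 higher and 336 lower.

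The immediate early genes, which encode short-lived transcription factors and feedback proteins induced within minutes of a stimulus, were lower in blood. Of 24 listed 21 were tested, and 21 of 21 fell, against 10.2% of all genes tested. Only 16 of them also passed the count filter in blood alone, the others having entered through the heart, and these 16 all fell, with a median log2 fold change of -2.46 against 0.02 over all genes. Fos, which pairs with Jun in the AP-1 dimer, was at 72.0 and 90.5 CPM in blood of stroke replicates 1 and 2 and 23 and 62.9 CPM in blood of control replicates 1 and 2, against 1643, 1647, 1463 and 1519 CPM in heart in the same order. No blood value came near a heart value, and the log2 fold change was -4.72 (SE 0.12, adjusted p = 1.77e-28). After thinning Fos was found in 3.67% to 13.7% of blood nonclassical monocytes, against 75.3% to 81.5% of heart nonclassical monocytes. Blood classical monocytes held it more often, in 14.9% to 34.6%, and blood B cells in 4.14% to 5.13%. Without thinning the shares were 8.04% to 25.0% in blood and 82.2% to 87.2% in heart nonclassical monocytes. They were 39.3% to 66.9% in blood classical monocytes and 7.44% to 10.2% in blood B cells. Dusp1, a phosphatase that ends MAP kinase signals, was at 56.6 and 116 CPM in stroke and 45.9 and 57.2 CPM in control blood, against 1335 to 1860 CPM in heart (-4.64, SE 0.11, adjusted p = 1.53e-29). Egr1, a zinc finger factor, was at 5.72 to 18.8 CPM in blood and 629 to 1001 CPM in heart (-6.37, SE 0.18). It passed the count filter only through the heart, with 5 and 2 blood UMIs in stroke and 9 and 3 in control replicates 1 and 2. Nr4a1, the lineage factor of these cells, was at 210, 262, 370 and 269 CPM in blood (stroke 1 and 2, control 1 and 2), against 963, 960, 1298 and 999 CPM in heart. It was therefore well expressed in blood already, unlike Fos or Egr1, and its difference was smaller, -1.96 (SE 0.09, adjusted p = 2.89e-21).

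To show the regulatory sequence of the genes that move together, the promoters of the 5 with the largest differences among those with an entry in the RefSeq table (build GRCm38.p6, 250 bases before to 50 after the start site) are given 5′ to 3′ along the gene. The ranking took in genes that passed the count filter only through the heart. Nr4a2 was among these, with 2 and 1 blood UMIs in stroke and 1 and 0 in control replicates 1 and 2. Nr4a2 lies on chr2:57123954-57124253 (minus strand), Fosb on chr7:19309996-19310295 (minus), Fos on chr12:85473640-85473939 (plus), Dusp1 on chr17:26508423-26508722 (minus) and Ier3 on chr17:35821463-35821762 (plus). Capitals mark a match to the cyclic AMP response element TGACGTCA, the AP-1 site TGANTCA, the CArG box of serum response factor or the NF-kB site, on either strand.
Nr4a2: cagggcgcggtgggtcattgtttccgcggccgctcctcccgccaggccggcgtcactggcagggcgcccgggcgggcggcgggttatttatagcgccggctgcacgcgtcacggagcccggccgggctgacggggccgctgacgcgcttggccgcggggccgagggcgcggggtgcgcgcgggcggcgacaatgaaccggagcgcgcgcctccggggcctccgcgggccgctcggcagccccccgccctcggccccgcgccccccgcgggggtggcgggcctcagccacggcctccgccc
Fosb: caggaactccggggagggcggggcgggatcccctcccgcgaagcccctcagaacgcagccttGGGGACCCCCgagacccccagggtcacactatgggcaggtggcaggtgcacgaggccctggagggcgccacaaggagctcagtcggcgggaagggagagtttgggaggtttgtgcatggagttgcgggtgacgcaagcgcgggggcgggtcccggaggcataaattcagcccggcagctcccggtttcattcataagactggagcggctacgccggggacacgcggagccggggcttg
Fos: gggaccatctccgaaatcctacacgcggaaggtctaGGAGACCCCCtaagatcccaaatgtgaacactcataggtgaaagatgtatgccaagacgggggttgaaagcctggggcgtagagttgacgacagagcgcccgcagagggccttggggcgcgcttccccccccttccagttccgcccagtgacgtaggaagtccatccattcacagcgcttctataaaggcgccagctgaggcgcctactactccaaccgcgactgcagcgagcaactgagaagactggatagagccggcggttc
Dusp1: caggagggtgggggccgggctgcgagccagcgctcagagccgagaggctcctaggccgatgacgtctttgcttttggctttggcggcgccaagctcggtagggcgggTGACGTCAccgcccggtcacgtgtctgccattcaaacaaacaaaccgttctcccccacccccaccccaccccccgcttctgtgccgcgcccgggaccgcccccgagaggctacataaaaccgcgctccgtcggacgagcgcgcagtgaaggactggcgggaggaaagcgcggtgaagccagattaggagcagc
Ier3: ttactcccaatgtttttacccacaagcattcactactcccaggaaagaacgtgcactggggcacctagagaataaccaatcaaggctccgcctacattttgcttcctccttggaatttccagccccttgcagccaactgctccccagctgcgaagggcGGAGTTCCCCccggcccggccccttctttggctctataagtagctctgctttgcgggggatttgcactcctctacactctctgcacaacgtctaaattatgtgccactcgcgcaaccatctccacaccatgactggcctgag
Of the 21 genes called, 19 had a promoter in the table, with genes that passed the count filter only through the heart included. The NF-kB site was found in 5 of them (Fosb, Fos, Ier3, Nr4a1 and Fosl2), against 8.46% of all 32851 promoters. TGACGTCA was found in Dusp1, 143 bases before the start, and in Btg2, against 1.79% of all promoters. The CArG box was found in Zfp36 alone (1.63% of all), TGANTCA in none of the 19 (7.81% of all) and the GC-rich run GGCGGG in 13 (35.3% of all). A match describes letters in this window and is no evidence of binding.

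**Figure D4:**
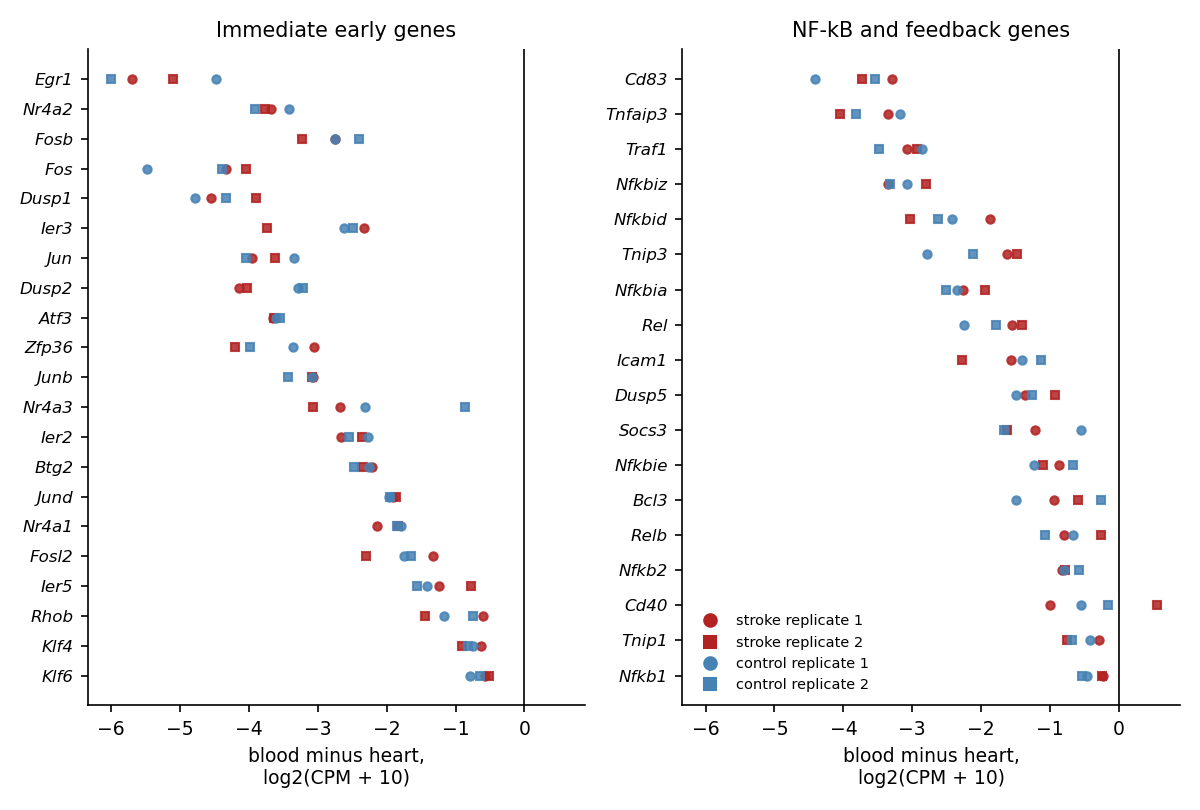
Blood minus heart difference on the log2(CPM + 10) scale (horizontal axis) for the 21 immediate early genes and 18 NF-kB and feedback genes tested, with 1 point per mouse (red stroke, blue control; circle replicate 1, square replicate 2). Every point of the 21 immediate early genes lies below 0, furthest for Egr1 and least far for Klf4 and Klf6. Genes that passed the count filter only through the heart are included, Egr1 among them.

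NF-kB and feedback genes fell in 17 of 18, against 10.2% of all genes tested, with Cd40 alone not called. Of the 17 that passed the filter in blood alone 16 fell, with a median of -1.37. Nfkbiz, an inducible nuclear IkB protein, was at 156, 226, 196 and 158 CPM in blood (stroke 1 and 2, control 1 and 2), against 1690, 1631, 1732 and 1669 CPM in heart. Cd83, a membrane protein of activated antigen-presenting cells, averaged 52.1 ± 10.5 CPM in blood and 826 ± 176 CPM in heart (SD, n = 4; -3.90, SE 0.13). Nfkbia, which encodes the inhibitor IkB alpha, averaged 449 ± 72.9 CPM in blood and 2194 ± 321 CPM in heart (-2.32, SE 0.08).

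Of 11 interleukin-1 and inflammasome genes tested 2 fell, Il1b and Nlrp3, and the list's median was 0.04. Over all genes tested 10.2% were called lower and 6.05% higher in blood. Il1b was at 199 and 146 CPM in stroke and 52.2 and 154 CPM in control blood, against 1612 and 1726 CPM in stroke and 1289 and 1619 CPM in control heart (-3.46, SE 0.12, adjusted p = 3.45e-25). Nlrp3, the inflammasome sensor, averaged 39.2 ± 5.67 CPM in blood and 183 ± 9.71 in heart (SD, n = 4; -2.26, SE 0.17), whereas the adaptor Pycard did not pass (0.32, adjusted p = 0.0592). Of 8 cytokine and chemokine genes tested 5 fell, but only 4 of the 8 passed the filter in blood alone, of which 1 fell (Tnf). Cxcl2, which draws neutrophils, averaged 3.74 ± 6.16 CPM in blood and 899 ± 87.9 CPM in heart, and Tnf 57.9 ± 18.1 and 370 ± 47.0 CPM. Ccl4, a chemokine for T cells and macrophages, had 0 UMIs in blood of all 4 mice and 457 in heart, at least 123-fold lower in blood when 3 UMIs over the 4 mice are taken as the floor. The complement receptor C5ar1 (-1.93, SE 0.17) and Tlr2 (-1.58, SE 0.23) fell, while Tlr7, which senses single-stranded RNA, rose (0.72, SE 0.13, edgeR adjusted p = 2.2e-05). The lipopolysaccharide co-receptor Cd14 was also lower (-3.72, SE 0.24), but it passed the count filter only through the heart. Its blood UMIs were 11 and 1 in stroke and 1 and 8 in control replicates 1 and 2.

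Of the 29 nonclassical identity genes outside the gate 2 rose (Cx3cr1 and Ceacam1) and 11 fell, with a median of -0.16. For this and the lists below, 6.05% of all genes tested rose and 10.2% fell. The markers Adgre4, Ear2 and Tgfbr3 did not pass, at 0.11, -0.19 and 0.09. The gate genes, given as description since they chose the cells, stood at 0.11 (Ace), -0.40 (Cd300e), -0.39 (Treml4) and -0.36 (Eno3). Cd36 averaged 310 ± 62.7 CPM in blood and 853 ± 221 CPM in heart (SD, n = 4; -1.47, SE 0.09), Cebpb 1135 ± 126 and 2294 ± 358 CPM (-1.02, SE 0.06), and Pparg 328 ± 36.0 and 588 ± 37.6 CPM (-0.84, SE 0.09). Lineage and survival factors fell in 7 of 14, among them Bcl2l11, which encodes the death-promoting protein BIM (-1.85), the survival protein genes Bcl2a1b (-1.54) and Mcl1, and the flow-responsive factor Klf2; Cx3cr1 rose. Of the adhesion and patrolling genes, Icam1 (-1.74), Cd44 (-0.89), Pecam1 (-0.76), Rap1b and Itgax fell and 13 of 18 did not.

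Classical monocyte genes were higher in blood, 7 of 11 called higher and 1 lower, against 6.05% and 10.2% of all genes tested. Without the gate gene Ly6c2 it was 6 of 10 higher and 1 lower, with a median of 0.63. Ccr2 averaged 224 ± 84.9 CPM in blood and 105 ± 16.4 CPM in heart (SD, n = 4; 1.07, SE 0.14), F13a1 86.7 ± 30.0 and 38.3 ± 9.71 CPM (1.18, SE 0.20), and Chil3 304 ± 87.0 and 152 ± 119 CPM (1.28, SE 0.18), where stroke replicate 2 went the other way. Ly6c2, a gate gene, was at 63.0, 50.3, 39.7 and 91.5 CPM in blood and 18.8, 42.1, 16.7 and 27.6 CPM in heart (stroke 1 and 2, control 1 and 2). Gda, which encodes guanine deaminase, fell (-0.59, SE 0.09). Under the gate of at least 5 marker UMIs Ccr2 was at 0.47 and no longer passed (adjusted p = 0.0647).

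Type I interferon genes rose in 7 of 24 (none fell) with a median of 0.30, where 6.05% of all genes tested rose and 10.2% fell. Ifi27l2a was at 1620 and 1056 CPM in stroke and 493 and 1041 CPM in control blood, against 1108 and 842 CPM in stroke and 310 and 586 CPM in control heart (0.60, SE 0.08, adjusted p = 9.81e-08). It was higher in blood than in heart within each of the 4 mice. Ifi209 (1.01, SE 0.18) and Ifi204 (0.64, SE 0.13), DNA-sensor relatives, and Oasl2 (1.27, SE 0.26) also rose.

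The genes with the largest rise in blood were F630028O10Rik, Txnip and the linker histone gene Hist1h1e. Txnip, a thioredoxin inhibitor induced by glucose and lowered by growth signals, was at 392, 241, 328 and 332 CPM in blood (stroke 1 and 2, control 1 and 2), against 104, 86.8, 66.7 and 109 CPM in heart (1.82, SE 0.13, adjusted p = 4.67e-15). Hist1h1e and Hist1h1c rose by 1.66 and 1.23 and the Schlafen genes Slfn8 and Slfn1 by 1.35 and 1.22. F630028O10Rik (2.09, SE 0.18) is annotated as an antisense RNA, and its counts are uncertain because the labels do not say whether strand was used in counting. Of the circulation list 10 genes were tested, of which 1 rose (Txnip) and 4 fell (Btg1, Cdkn1b, Klf3 and Klf2), with a median of -0.12. Over all genes tested 6.05% rose and 10.2% fell. Btg1 averaged 661 ± 244 CPM in blood and 1487 ± 323 CPM in heart (SD, n = 4; -1.20, SE 0.09) and Cdkn1b 228 ± 38.1 and 414 ± 79.5 CPM (-0.90).

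**Figure D5:**
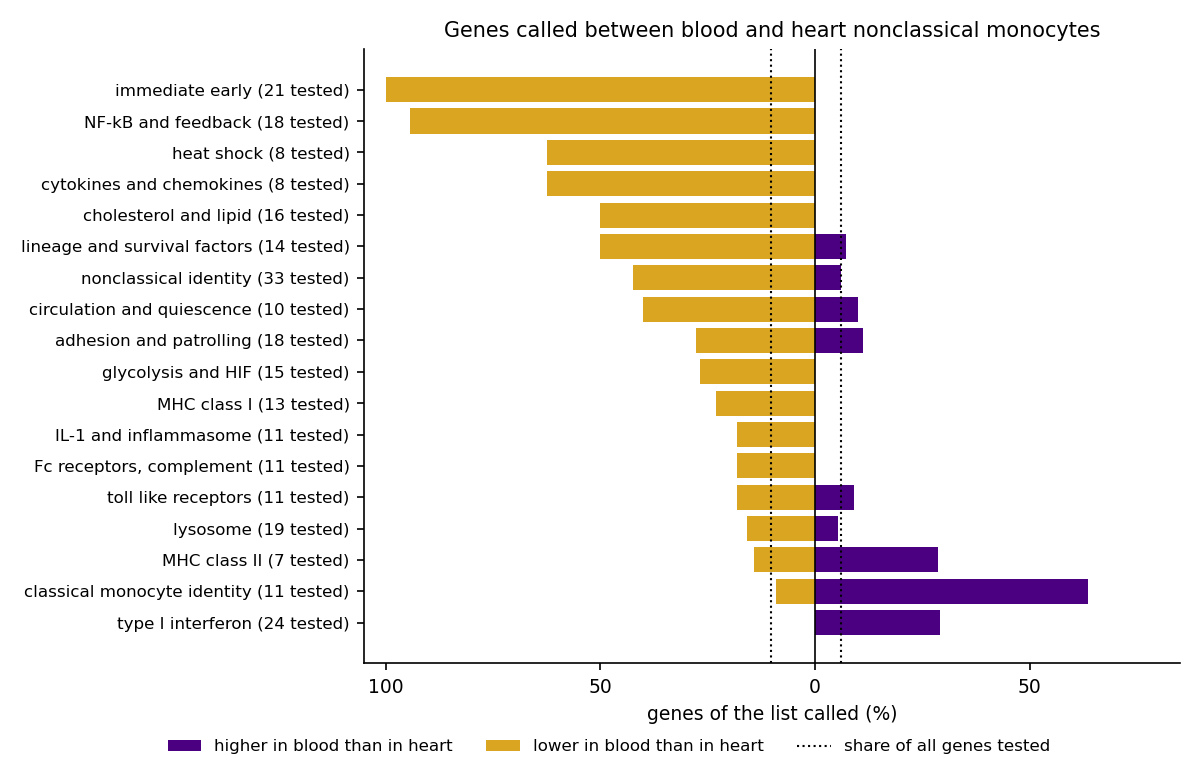
Percent of the tested genes of each list that were called higher (right of 0) or lower (left of 0) in blood than in heart nonclassical monocytes, with dotted lines at the shares over all 5947 genes tested, 6.05% and 10.2%. Immediate early and NF-kB genes reach furthest on the lower side, with genes that passed the count filter through the heart included, and classical monocyte identity and type I interferon genes on the higher side.

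Heart muscle transcripts were also lower in blood, Myl7, Nppa, Myl4, Sln, Tnnt2, Actc1, Mb, Tnni3, Fabp3 and Csrp3 among them. They came from few barcodes: 7 and 7 of 219 and 110 heart barcodes in stroke and 5 and 9 of 100 and 213 in control held any cardiomyocyte UMI, with 424, 680, 563 and 2428 such UMIs, against 3, 0, 2 and 2 UMIs in blood members. Of the 6 defining cardiomyocyte markers Tnnt2, Actc1, Myl2, Myh6 and Mb were at 0 in blood. Without barcodes holding a cardiomyocyte UMI 919 genes were called, 331 higher and 588 lower, 879 of them among the 968.

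MHC class II genes did not move together between organs. H2-DMa (0.56) and H2-DMb1 (0.64) rose and H2-Eb1 fell (-0.53, SE 0.18, adjusted p = 0.0339), but without barcodes above 2 times the median UMIs H2-Eb1 was at 0.63 with adjusted p = 0.0018. Single barcodes held up to 47.6% of the H2-Eb1 UMIs of a mouse in blood and 17.3% to 57.3% in heart.

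The difference between the donor groups was then compared between blood and heart in a single fit of the 8 sums. The interaction called 1 of 5947 genes (0.0168%), Gsn, which encodes the actin-severing protein gelsolin (ENSMUSG00000026879, GRCm38 chromosome 2, 35256380 to 35307892, plus strand). In blood it was at 38.6 and 25.1 CPM in stroke and 45.9 and 43.8 CPM in control; in heart it was at 44.4 and 47.3 CPM in stroke and 541 and 311 CPM in control (interaction 2.84, SE 0.42, edgeR adjusted p = 0.00222). Only the control hearts stood out, and a single barcode held 90.3% of the 227 UMIs of control replicate 1 and 59.6% of the 225 UMIs of control replicate 2. Fibroblast markers, absent from the heart cells of stroke mice (0 and 0 CPM), were at 498 and 247 CPM in those of control replicates 1 and 2. Without barcodes above 2 times the median UMIs the Gsn term was 0.91 with adjusted p = 0.998, with at least 5 marker UMIs it was -0.86, and DESeq2 called no gene (8 at unadjusted p under 0.05, against 272 with edgeR). Btg1 was higher with stroke marrow in blood, at 837 and 900 CPM against 407 and 499, and at 1635 and 1836 CPM in stroke hearts, against 1389 and 1088 CPM in control hearts, with an interaction of 0.44 (SE 0.17, adjusted p = 1).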

How the data were processed

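The authors deposited UMI counts per gene and hashtag for the filtered barcodes of 4 libraries, not normalized, made with Cell Ranger 7.1.0 on mm10, per the submitters' processing notes. The other deposited files (barcodes, features and a hashtag note) hold names and no measurements. Organ was the hashtag with at least 80% of at least 10 hashtag UMIs. Members, gates and gene lists were chosen with earlier results of these data known. UMIs of members were summed per mouse and organ and tested with edgeR 4.0.16 (TMM, filterByExpr, quasi-likelihood) in R 4.3.3, and DESeq2 1.42.0 served as an alternative. The scripts were tested on simulated data. Shares were tested with scipy 1.17.1. Of 32285 gene identifiers, 32235 were found in GENCODE vM21 (GRCm38), which gave coordinates. The deviations of same-numbered mice were not correlated over genes (r = -0.05), and numbers were not used as pairs in the main fit. With 2 mice per group this value cannot decide whether the numbers pair the mice. Blood and heart were paired by mouse. The 4 libraries were joined in 1 matrix, and whether reads were subsampled at the join is not stated.

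Named genes were the markers and gate genes, called genes by size (up to 12 per direction between donors, 15 between organs at 50 CPM or more with 1 sign in all 4 mice), up to 2 (donors) or 4 (organs) genes per list by p, and, against classical monocytes, up to 15 per direction by the smallest difference of the 4 mice. Further genes are named from their lists after their values were seen. Alternatives were scaling, filters, gate limits, thinning, blocks and leaving out each mouse.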

Additional observations from a re-analysis of the deposited data

Results flagged for a closer look

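Gsn was flagged because its donor difference was not the same in blood and heart: the interaction was 2.844 on the log2 scale (edgeR's quasi-likelihood test, adjusted p = 0.00222). The values per mouse, the barcodes that hold its UMIs and the fibroblast markers beside it are given above, and their part in the result was not tested beyond the alternatives listed there.

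In 101 genes named between organs, the blood minus heart differences of the 4 mice were examined for a mouse far from the others, which chance gives in about 1 in 20 groups; 2 genes were flagged. Tgfbr3, the marker with the lowest detection, was at 0.352 in control replicate 1, against 0.02, -0.01 and -0.05 in stroke replicates 1 and 2 and control replicate 2. Junb, an AP-1 gene, was at -3.438 in control replicate 2, against -3.08, -3.08 and -3.08 in stroke replicates 1 and 2 and control replicate 1, so all 4 mice showed the same direction and a similar size.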

How the results depend on the processing

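The donor comparison depended on most settings tried. Against 3 genes called, DESeq2, at least 5 marker UMIs, at least 95% of hashtag UMIs, no barcodes above 2 times the median UMIs, thinning to 2000 UMIs, the replicate block and a single fit of all 8 sums each gave 0; no low-count filter gave 15; no limit on S100a8 and S100a9, and only members with a transgene UMI (chosen after seeing the data), each gave 6; leaving out a mouse gave 0 (without stroke replicate 2) to 29. Between organs, 968 calls became 418 with DESeq2 and 542 after thinning, and 662 to 922 without 1 mouse. Against the 1 interaction call, DESeq2, at least 5 marker UMIs, at least 95% of hashtag UMIs, no barcodes above 2 times the median UMIs, thinning and, chosen after seeing the data, no member with a cardiomyocyte UMI gave 0, no low-count filter gave 6, and leaving out a mouse 1 to 4. Between organs 3 values reversed in genes called in the main fit or in the alternative. H2-Eb1 was 0.63 without barcodes above 2 times the median UMIs and 0.043 after thinning. H2-Ab1, at -0.28, was 0.48 without barcodes above 2 times the median UMIs. Gsn was -0.86 with at least 5 marker UMIs. The causes were not tested. Of the other alternatives for genes named between organs, 1449 kept the call or its absence, 82 lost the call and 13 gained it. A change of sign in a gene called in neither fit was counted among the 1449. Tgfbr3, for example, went from 0.09 to -0.03 with a mouse left out. The share of blood ran from -7.38 to 2.51 points and that of monocytes from -2.65 to 16.5 without 1 mouse. Stroke replicate 2 had 56 members, which limits the precision of its levels.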

Other observations

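Some genes of housekeeping and stress lists were also called between blood and heart nonclassical monocytes. Over all genes tested 6.05% were called higher and 10.2% lower in blood. Heat shock genes fell in 5 of 8 tested, with Hsp90aa1, a chaperone, at 316 ± 36.2 CPM in blood and 563 ± 59.4 CPM in heart (SD, n = 4; log2 fold change -0.82, SE 0.09) and Hspa8 at -0.46 (SE 0.07). Glycolysis and HIF genes fell in 4 of 15 (3 of the 14 that passed the filter in blood alone) and rose in none. Ldha, Gapdh, Aldoa and Slc2a1 were those called. Slc2a1, a glucose transporter gene, was at 16.4 ± 2.53 CPM in blood and 50.7 ± 6.82 CPM in heart (-1.64, SE 0.27), but it passed the count filter only through the heart. Cholesterol and lipid genes fell in 8 of 16 (7 of 15 by the filter in blood alone), among them Plin2, which coats lipid droplets (-0.69, SE 0.11), and Fabp4 (-0.79, SE 0.10). Of 19 lysosome genes 3 fell (Ctsl at -2.11, Lamp2 at -0.63 and Lgmn at -0.46) and Psap rose (0.27, SE 0.07). By the filter in blood alone 2 of 18 fell, and these counts lie near the shares over all genes. MHC class I genes fell in 3 of 13, each by little: H2-K1 at -0.23, B2m at -0.22 and H2-D1 at -0.22.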
